A study of Mus musculus with 11 samples.

Results

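Serine synthesis and the folate one-carbon cycle were followed through 9 enzyme genes, chosen by name with earlier results of these data known. They were read in RNA sequencing counts that hold 37583 gene IDs. The 9 were Phgdh, Psat1 and Psph of the serine pathway, Shmt2, Mthfd1l, Mthfd2 and Aldh1l2 of the mitochondrial folate cycle, and Shmt1 and Mthfd1 of the cytosolic one. All 9 were matched by Ensembl ID and all 9 were expressed enough to be tested. RNA came from 11 single-cell clones of C57BL/6 mouse granulocyte-monocyte progenitors (GMPs), the precursors of neutrophils and monocytes, made from embryonic day 15.5 fetal liver. In 5 clones tafazzin was missing (KO, titled 3H, 3I, 4J, 4K, 4L), and 6 clones were wild type (WT, titled 1A, 1B, 1C, 2D, 2E, 2F). Where the values of single KO clones are listed, they follow that order. All 11 carried retroviral ER-Hoxb8, an estrogen-dependent form of a transcription factor that keeps progenitors immature, and all grew in 0.5 uM beta-estradiol with stem cell factor, so that no clone here is an unmodified progenitor. Tafazzin is encoded by Taz and matures cardiolipin, a phospholipid of mitochondrial membranes. Patients without working tafazzin have Barth syndrome. The digit in a title (3 or 4 in KO clones, 1 or 2 in WT clones) is called the title number here, and the sources used do not explain it. The deleted part of Taz and any culture shared by clones with the same digit are likewise unknown, so p-values measure the spread between these clones only.

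Serine is made from the glycolytic intermediate 3-phosphoglycerate in 3 steps: Phgdh oxidises it, Psat1 transfers an amino group to it, and Psph removes the phosphate. Serine hydroxymethyltransferase then passes a carbon from serine to folate and leaves glycine, through Shmt2 in mitochondria and Shmt1 in the cytosol. In mitochondria Mthfd2 oxidises the folate-bound carbon, Mthfd1l releases it as formate, and Aldh1l2 burns it to carbon dioxide while making NADPH. In the cytosol the trifunctional Mthfd1 takes formate up again for purine, thymidylate and methyl group synthesis. Mitochondrial stress is known in mammalian cells to raise many of these genes through the transcription factor ATF4.

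Gene counts totalled 19.8 to 23.7 M per KO clone and 22.0 to 27.4 M per WT clone, with deeper WT libraries (two-sided exact permutation test, p = 0.0303). Taz averaged 3.23 ± 0.68 CPM (counts per M, on scaled library sizes) in KO clones and 39.1 ± 2.54 CPM in WT clones (SD, n = 5 and 6), and its groups did not overlap. All 12 markers of GMPs were expressed, summing to 12390 to 20540 CPM in KO clones and 13300 to 22780 CPM in WT clones, and edgeR called none of them (1 at an unadjusted p under 0.05, none with DESeq2 or limma-voom). Elane among them ran from 2.26 to 147 CPM in KO clones and 23.3 to 825 CPM in WT clones. The 8 mast, basophil, megakaryocyte and eosinophil markers summed to 2244 to 5136 CPM in KO clones and 1274 to 4113 CPM in WT clones. The 9 erythroid markers summed to 14.3 to 28.2 CPM in KO clones and 15.9 to 115 CPM in WT clones. Of both lists edgeR called no tested gene (1 erythroid gene lower at an unadjusted p under 0.05 and with DESeq2). The 12 late neutrophil markers summed to 15.9 to 146 CPM in KO clones. In WT clones they summed to 1546 CPM in 2D, against 22.1 to 116 CPM in the other 5, and 2D is treated below as a library that stands apart. The 6 B cell markers summed to 4.52 to 27.4 CPM in KO clones and 30.4 to 50.1 CPM in WT clones, without overlap. Most of the sum in every clone was Ebf1, which averaged 16.0 CPM in KO clones and 30.0 CPM in WT clones. Ebf1 alone overlapped between genotypes and was not called (edgeR adjusted p = 0.260). Pax5 and Ms4a1 had 0 counts in all 11, 3 of the 6 were tested, and Cd79b was called lower, at 0.61 CPM in KO clones and 8.55 CPM in WT clones (edgeR adjusted p = 0.0170). The part of these genes in the differences below was not tested. Between genotypes, edgeR's quasi-likelihood test called 601 of 11900 genes at a Benjamini-Hochberg adjusted p under 0.05, or 5.05%, with 2.76% higher and 2.29% lower in KO clones.

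Of the 9 enzymes, 4 were called higher in KO clones (Psph, Shmt2, Mthfd2 and Aldh1l2) and none lower, where 2.76% of all tested genes were called higher. Because the 9 were chosen with earlier results of these data known, setting them beside all genes is no test of the set. Fold changes were positive for 7 of 9, beside 5759 of 11900 tested genes. Their median log2 fold change was 0.37, against -0.01 over all tested genes. At an unadjusted p under 0.05, 7 enzymes were higher and none lower, beside 10% and 10.3% of all tested genes. DESeq2 called 5 higher beside 5% of all genes, limma-voom called 3 higher beside 3.03%, and neither called one lower. KO and WT clones did not overlap for 1 of the 9 (Psph), where 5.99% of all tested genes did not overlap. Without WT 2D, a choice made after seeing the data, Phgdh, Psat1, Shmt2 and Mthfd2 joined Psph, which makes 5 of 9 beside 8.54% of all genes. In bulk RNA, fewer cells of a type and less RNA per cell cannot be told apart.

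**Figure D1:**
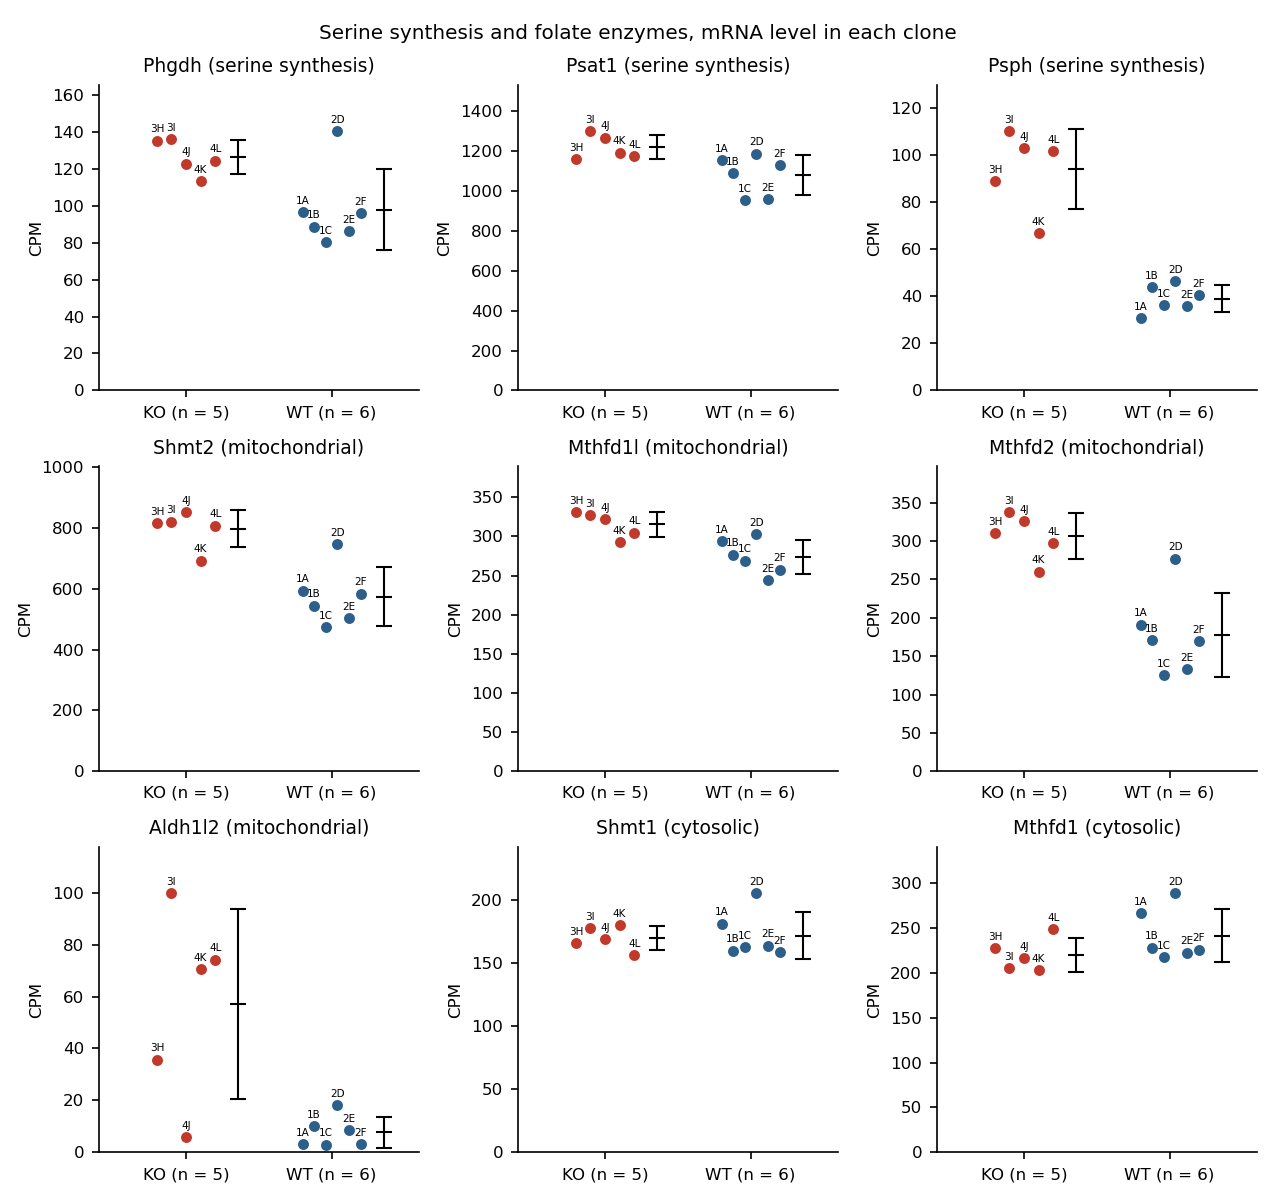
Level of each enzyme's mRNA in every clone, in CPM from 0, with the 5 KO clones (red) left of the 6 WT clones (blue); black marks are the mean and SD. Psph separates the genotypes completely, WT 2D is the highest WT clone in all 9 panels, and Aldh1l2 in KO 4J lies among the WT clones.

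Psph, the phosphatase of the last step to serine, had the smallest adjusted p among the 9. It stood at 88.8, 110, 103, 67.0 and 101.7 CPM across the KO clones. In WT clones it had a lowest value of 30.6, a median of 38.4 and a highest of 46.3 CPM. Every KO clone exceeded every WT clone, the closest being KO 4K and WT 2D. The mean was 94.1 ± 17.0 CPM in KO clones and 38.9 ± 5.78 CPM in WT clones (SD), a 2.42-fold difference. Its log2 fold change was 1.28 ± 0.14 (SE), with an edgeR adjusted p of 0.00117. By p-value it ranked 18 of 11900 genes, and it was called in all 26 alternative settings, with log2 fold changes of 1.20 to 1.38. Psph shares 452 exon bases with Cct6a, a chaperonin subunit gene on the opposite strand, and counting ignored strand. Cct6a itself had 515 CPM in KO clones and 542 CPM in WT clones, log2 fold change -0.07 ± 0.07 (edgeR adjusted p = 0.596).

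The first 2 enzymes of the pathway were not called. Phgdh, which commits 3-phosphoglycerate to serine, had 135, 136, 123, 113 and 124 CPM across the KO clones. In WT clones its lowest, median and highest values were 80.2, 92.3 and 140 CPM. Only WT 2D, the highest of all 11, reached into the KO range. The log2 fold change was 0.37 ± 0.13 (SE, edgeR adjusted p = 0.137), and without WT 2D it was 0.50 ± 0.07 (adjusted p = 0.00309). Phgdh has 13 processed pseudogenes at least 95% identical to it over at least 100 bases, and multiply mapped reads were not counted, so its level is uncertain. Psat1, the aminotransferase, had 1161, 1300, 1268, 1192 and 1176 CPM across the KO clones. Its WT values had a lowest of 953, a median of 1109 and a highest of 1187 CPM. KO 3H and 4L lay below WT 2D, and the log2 fold change of 0.18 ± 0.06 (SE) was not called (edgeR adjusted p = 0.150). Within a clone, the log2 ratio of Psph to Phgdh averaged -0.44 ± 0.23 in KO clones and -1.32 ± 0.25 in WT clones, and that of Psph to Psat1 -3.71 ± 0.25 and -4.80 ± 0.22 (SD). Neither ratio overlapped between genotypes, and both were chosen after the values were seen and carry no test.

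The promoters of Psph, with the clearest difference, and Phgdh, which opens the pathway, are shown because, of the 8 enzymes whose promoters were searched, they alone held a match to any of the 3 motifs (RefSeq, GRCm38.p6; 250 bases before to 50 after the start, 5′ to 3′ on the gene's strand). Capitals mark matches to the antioxidant response element core TGACNNNGC on either strand. The Psph window is chr5:129787204-129787503 on the minus strand and that of Phgdh is chr3:98339920-98340219 on the minus strand.
Psph: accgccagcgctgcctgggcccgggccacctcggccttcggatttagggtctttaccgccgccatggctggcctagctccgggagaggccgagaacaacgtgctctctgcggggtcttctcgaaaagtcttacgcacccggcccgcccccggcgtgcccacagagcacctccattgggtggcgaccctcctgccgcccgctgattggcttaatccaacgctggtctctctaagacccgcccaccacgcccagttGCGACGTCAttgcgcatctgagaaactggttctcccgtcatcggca
Phgdh: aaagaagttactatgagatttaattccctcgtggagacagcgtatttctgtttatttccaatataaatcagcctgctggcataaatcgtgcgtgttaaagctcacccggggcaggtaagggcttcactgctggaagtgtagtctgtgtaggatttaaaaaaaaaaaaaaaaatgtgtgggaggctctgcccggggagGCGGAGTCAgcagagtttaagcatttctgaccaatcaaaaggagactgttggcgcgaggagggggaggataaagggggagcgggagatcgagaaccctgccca
The match GCGACGTCA in Psph begins 5 bases after the start, and GCGGAGTCA in Phgdh begins 53 bases before it, both read on the other strand. TGACNNNGC occurred in 2 of the 9 promoters searched (8 genes, Psat1 with 2 starts; Aldh1l2 was not searched), and in 12.4% of the 32851 promoters of that length. The Psph window overlaps that of Cct6a, which runs the other way, so the match lies in both promoters. These are matches of letters and no binding was measured.

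All 4 enzymes of the mitochondrial cycle had positive fold changes, and 3 were called higher. Over all tested genes 5759 of 11900 fold changes were positive and 2.76% were called higher. Shmt2, the entry enzyme, had 814, 820, 851, 692 and 807 CPM across the KO clones. Its lowest, median and highest WT values were 474, 564 and 746 CPM. KO 4K was the lowest KO clone and fell below WT 2D, while the other 4 KO clones exceeded every WT clone. Shmt2 averaged 797 ± 61.0 CPM in KO clones and 574 ± 96.1 CPM in WT clones (SD), and the log2 fold change was 0.47 ± 0.11 (SE, edgeR adjusted p = 0.0323). Its call was lost without any 1 of 9 clones, at adjusted p-values up to 0.0809, and kept without KO 4K or WT 2D.

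Mthfd2, the mitochondrial methylene-folate dehydrogenase, had 310, 338, 325, 260 and 297 CPM across the KO clones. WT clones had a lowest of 125, a median of 170 and a highest of 277 CPM. WT 2D again exceeded KO 4K and no other KO clone. The mean was 306 ± 29.9 CPM in KO clones and 178 ± 54.7 CPM in WT clones (SD), and the log2 fold change was 0.78 ± 0.18 (SE, edgeR adjusted p = 0.0363). The call was lost without any 1 clone other than WT 2D, at adjusted p-values up to 0.0935. Without WT 2D the log2 fold change was 0.95 (adjusted p = 0.00285).

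Aldh1l2, the mitochondrial formyl-folate dehydrogenase, differed most in size and least evenly. It had 35.7, 99.8, 5.86, 70.4 and 74.1 CPM across the KO clones, a 17.0-fold range. In WT clones it ran from 3.00 CPM through a median of 5.92 to 18.1 CPM. In 4 KO clones it exceeded every WT clone, and KO 4J lay below WT 1B, 2D and 2E. It averaged 57.2 ± 36.6 CPM in KO clones and 7.68 ± 5.97 CPM in WT clones (SD). The log2 fold change of 2.89 ± 0.70 (SE) ranked 13 of 11900, with an edgeR adjusted p of 0.0399. The call was lost without any 1 clone other than KO 4J and WT 2D, at adjusted p-values up to 0.102, and limma-voom did not make it (adjusted p = 0.163). Aldh1l2 shares 1056 exon bases with D10Wsu102e on the opposite strand, which had 101.5 CPM in KO clones and 90.6 CPM in WT clones and was itself called higher (log2 fold change 0.16 ± 0.04, edgeR adjusted p = 0.0385), a call kept only without KO 4J or WT 2F among the single clones left out (adjusted p up to 0.0980). The part of that overlap in the Aldh1l2 counts was not tested.

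Mthfd1l, the mitochondrial formyl-folate synthetase, had 331, 328, 322, 293 and 305 CPM across the KO clones. Its lowest, median and highest WT values were 244, 273 and 303 CPM. KO 4K lay below WT 1A and 2D, and the other KO clones lay above all WT clones. Its log2 fold change of 0.20 ± 0.06 (SE) was not called (edgeR adjusted p = 0.0726), and without WT 2D it was 0.23 (adjusted p = 0.0333).

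The cytosolic enzymes showed no called difference. Shmt1 had 166, 177, 169, 180 and 156 CPM across the KO clones. In WT clones its lowest, median and highest values were 158, 163 and 205 CPM. The groups overlapped almost fully, and the log2 fold change was -0.02 ± 0.07 (SE, edgeR adjusted p = 0.925). Mthfd1 had 228, 205, 216, 202 and 248 CPM across the KO clones. Its WT values had a lowest of 217, a median of 227 and a highest of 288 CPM. These groups overlapped as well, and the log2 fold change was -0.13 ± 0.08 (SE, edgeR adjusted p = 0.412). Neither gene passed an unadjusted p of 0.05, DESeq2 or limma-voom.

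**Figure D2:**
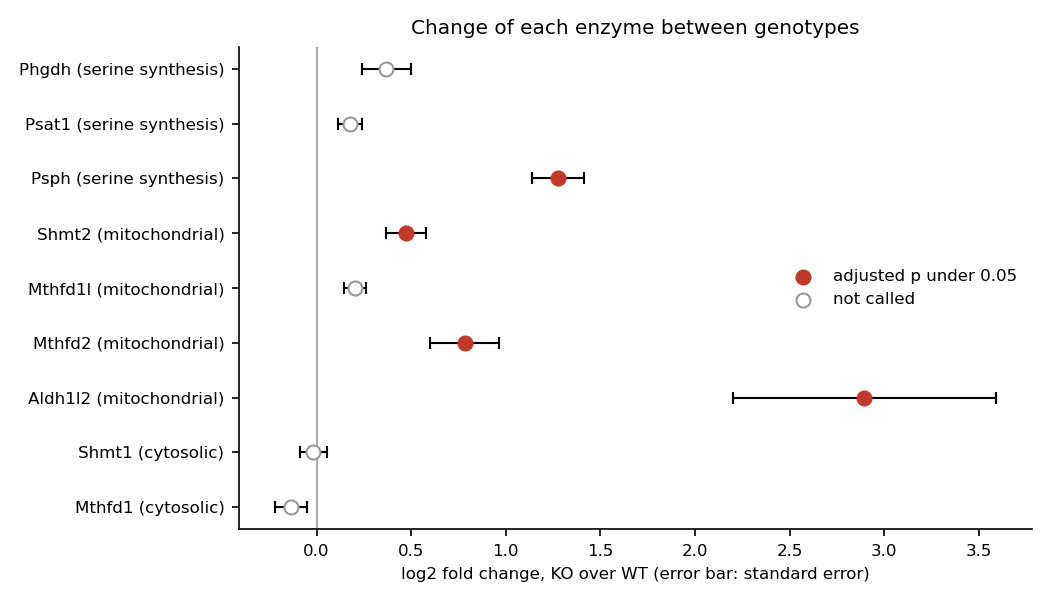
Log2 fold change of each enzyme, KO over WT, with its standard error; filled points passed an adjusted p of 0.05. The serine and mitochondrial enzymes lie right of 0, from 0.18 for Psat1 to 2.89 for Aldh1l2, and the cytosolic Shmt1 and Mthfd1 lie at -0.02 and -0.13.

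Setting each mitochondrial enzyme against its cytosolic counterpart within a clone removes library scaling from the comparison. The log2 ratio of Shmt2 to Shmt1 was 2.30, 2.21, 2.33, 1.94 and 2.37 across the KO clones. In WT clones its lowest, median and highest values were 1.54, 1.74 and 1.88. No KO clone overlapped a WT clone, WT 2D included. The mean was 2.23 ± 0.17 in KO clones and 1.73 ± 0.13 in WT clones (SD), a difference of 0.50 on the log2 scale. A two-sided exact permutation test over all splits of the clones returned its smallest possible p of 0.00216, or 0.00325 adjusted over the 3 ratios tested. For Mthfd2 over Mthfd1 the log2 ratio was 0.45, 0.72, 0.59, 0.36 and 0.26 across the KO clones. Its WT values had a lowest of -0.80, a median of -0.45 and a highest of -0.06. Mthfd2 had more CPM than Mthfd1 in every KO clone and fewer in every WT clone. CPM are not scaled to exon length (3.487 kb for Mthfd2, 4.442 kb for Mthfd1), so equal CPM does not mean equal transcript levels. The means were 0.47 ± 0.18 in KO clones and -0.48 ± 0.27 in WT clones (SD), a difference of 0.96 (exact permutation p = 0.00216, adjusted 0.00325). For Mthfd1l over Mthfd1 the ratio averaged 0.52 ± 0.14 in KO clones and 0.19 ± 0.09 in WT clones (SD), a difference of 0.34 (exact permutation p = 0.00433, adjusted 0.00433). KO 4L, at 0.30, lay just under WT 1C, at 0.31, so this ratio overlapped, and without the 3 WT clones of title number 2 its p was 0.0714. Aldh1l2 could not be set against cytosolic Aldh1l1, which had 0 counts in all 11 clones, where 3 counts would be 0.109 to 0.152 CPM.

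**Figure D3:**
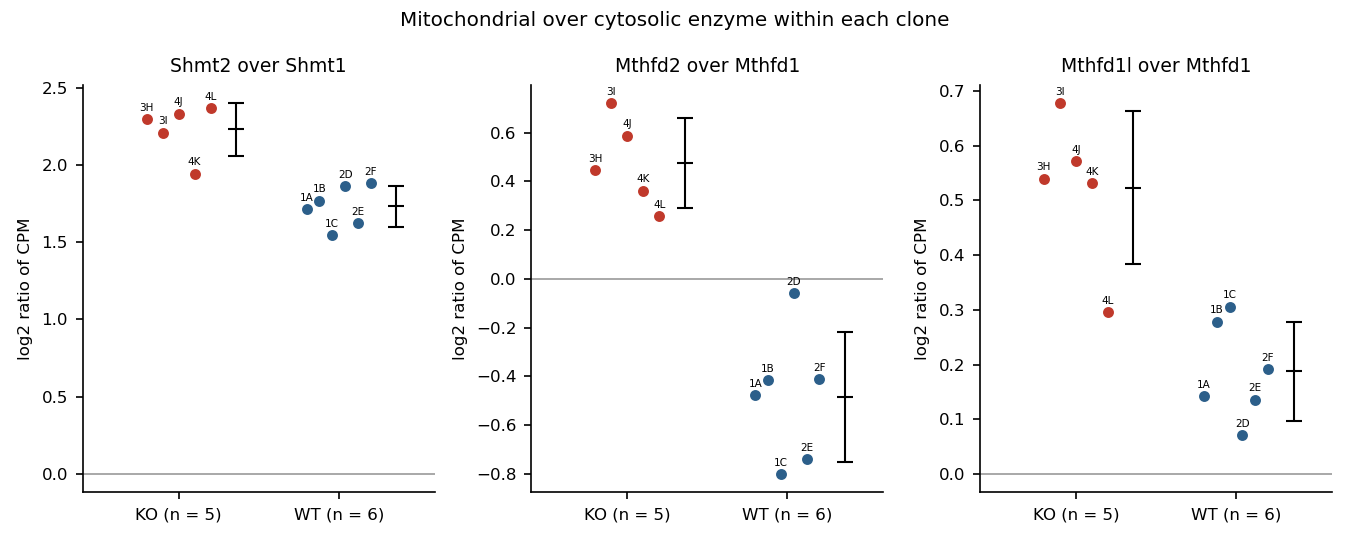
Log2 ratio of CPM of a mitochondrial over a cytosolic enzyme within each clone, KO (red) left of WT (blue), with mean and SD; the grey line marks equal CPM. KO and WT clones do not overlap for Shmt2 over Shmt1 or Mthfd2 over Mthfd1, and KO 4L meets WT 1C for Mthfd1l over Mthfd1.

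The promoters of Shmt2 and Shmt1, which code for the same reaction in 2 compartments, and of Mthfd2 are shown for comparison with that of Asns, an asparagine synthetase gene known as an ATF4 target. Capitals mark matches to the C/EBP-ATF response element core TGATGNAA or to TGACNNNGC, on either strand. All 4 are on the minus strand, at chr10:127522395-127522694 (Shmt2), chr11:60811216-60811515 (Shmt1), chr6:83317555-83317854 (Mthfd2) and chr6:7693160-7693459 (Asns).
Shmt2: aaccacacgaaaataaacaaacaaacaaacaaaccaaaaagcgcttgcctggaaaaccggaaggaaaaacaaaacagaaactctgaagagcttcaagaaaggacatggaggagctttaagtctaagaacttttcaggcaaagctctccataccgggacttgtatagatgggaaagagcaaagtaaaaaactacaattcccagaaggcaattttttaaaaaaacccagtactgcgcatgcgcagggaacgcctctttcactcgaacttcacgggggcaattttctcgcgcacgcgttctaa
Shmt1: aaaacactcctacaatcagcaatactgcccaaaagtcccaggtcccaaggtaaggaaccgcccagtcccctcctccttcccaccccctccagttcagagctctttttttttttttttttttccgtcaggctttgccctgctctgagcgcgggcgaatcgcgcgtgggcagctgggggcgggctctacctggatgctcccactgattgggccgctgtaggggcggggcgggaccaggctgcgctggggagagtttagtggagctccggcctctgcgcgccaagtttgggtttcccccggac
Mthfd2: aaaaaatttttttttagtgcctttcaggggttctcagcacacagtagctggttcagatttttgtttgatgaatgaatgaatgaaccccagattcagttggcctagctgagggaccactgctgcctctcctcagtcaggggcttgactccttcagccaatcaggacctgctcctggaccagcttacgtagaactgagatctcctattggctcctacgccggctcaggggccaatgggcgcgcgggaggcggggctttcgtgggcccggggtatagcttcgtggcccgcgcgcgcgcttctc
Asns: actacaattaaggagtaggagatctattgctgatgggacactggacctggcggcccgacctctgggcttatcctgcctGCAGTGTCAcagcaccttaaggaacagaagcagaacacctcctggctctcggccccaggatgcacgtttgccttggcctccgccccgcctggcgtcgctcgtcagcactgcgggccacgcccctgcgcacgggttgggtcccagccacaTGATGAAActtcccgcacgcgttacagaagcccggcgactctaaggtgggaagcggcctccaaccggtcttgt
Asns holds TGATGAAA beginning 23 bases before the start. Among other stress response genes searched, Trib3 and Chac1 also held a match to TGATGNAA, while Ddit3 and Sesn2 held none. All of these genes were called higher in KO clones. None of the 9 promoters searched, which leave out Aldh1l2, matched TGATGNAA, which occurred in 3.97% of 32851 promoters, and none matched the E-box CACGTG, which occurred in 7.15%. No match says only that these letters are not in these windows.

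Per kilobase of exon, with lengths from GENCODE M21, Psat1 and Shmt2 had the highest levels and Psph and Aldh1l2 the lowest in both genotypes. These lengths join the exons of all isoforms, and the annotation used for counting is not named, so the order is approximate. The shared exon bases of Psph and Aldh1l2 and the near copies of Phgdh add to that uncertainty. Psat1 led with 287 ± 14.4 CPM per kb in KO clones and 253 ± 23.5 in WT clones (SD). Shmt2 followed with 256 ± 19.6 CPM per kb in KO clones and 185 ± 30.9 in WT clones. Mthfd2 came next in KO clones at 87.7 ± 8.58 CPM per kb, above Mthfd1l at 71.1 ± 3.66. In WT clones Mthfd2 stood at 51.0 ± 15.7 CPM per kb and Mthfd1l at 61.8 ± 4.94, and their difference within clones was not tested. Phgdh, Mthfd1 and Shmt1 lay close together, at 50.8 ± 3.78, 49.5 ± 4.24 and 43.7 ± 2.44 CPM per kb in KO clones and 39.4 ± 8.72, 54.3 ± 6.52 and 44.2 ± 4.73 in WT clones. Psph, at 21.7 ± 3.93 CPM per kb in KO clones and 8.98 ± 1.33 in WT clones, was followed by Aldh1l2, at 7.62 ± 4.88 CPM per kb in KO clones and 1.02 ± 0.795 in WT clones.

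Clones of 1 genotype also differed from each other. WT 2D had the highest WT value of all 9 enzymes, from 0.14 (Psat1) to 1.57 (Aldh1l2) above the WT mean on the log2 scale, and it was also the clone with 1546 CPM of late neutrophil markers. Of those 12 markers 7 were tested, none was at 0 in all clones, and edgeR called none between genotypes (2 lower at an unadjusted p under 0.05, 2 with DESeq2, 0 with limma-voom). When the fit took each clone's late neutrophil score as a covariate, 6 of 9 enzymes were called higher, beside 4.08% of all genes in that fit. KO 4K was the lowest KO clone for Phgdh, Psph, Shmt2, Mthfd1l, Mthfd2 and Mthfd1. After the genotype means were subtracted, the highest Pearson r between enzymes was that of Shmt2 and Mthfd2, 0.97 over 11 clones and 0.93 without WT 2D. Aldh1l2 and Mthfd2 had 0.24, and -0.16 without WT 2D. These are descriptions over clones that share their libraries. Within genotypes, edgeR called none of the 12633 genes tested between title numbers 1 and 2 in WT clones, or 0% (397 at an unadjusted p under 0.05), and none between 3 and 4 in KO clones, or 0% (187 at an unadjusted p under 0.05), and limma-voom called 0 in both.

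**Figure D4:**
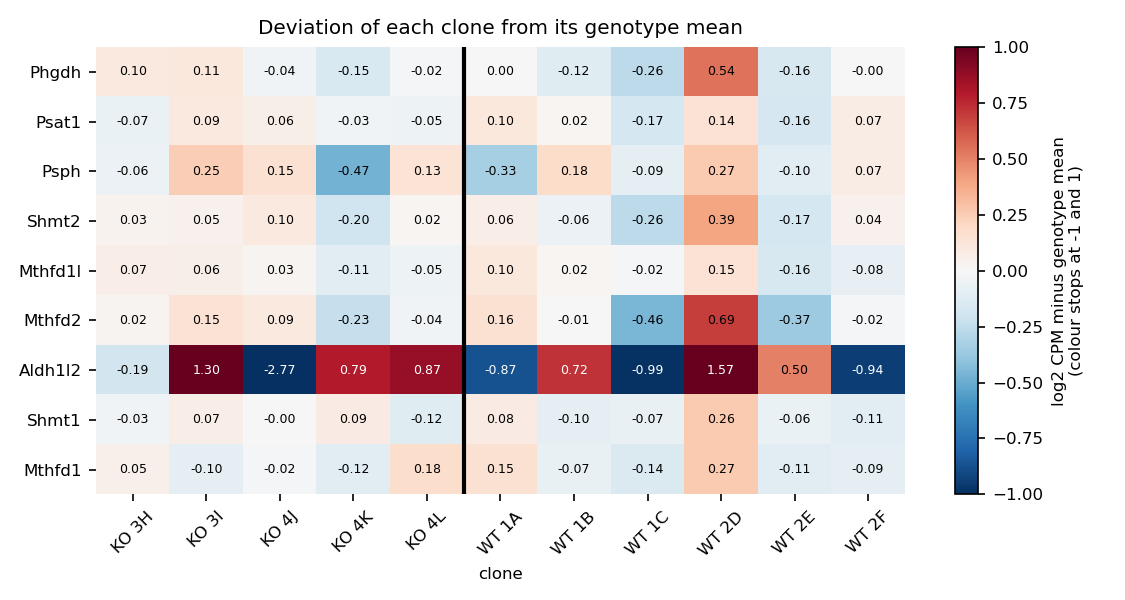
Log2 CPM of each enzyme in each clone minus the mean of its genotype, KO clones left and WT clones right of the black line; colour stops at -1 and 1. WT 2D is above its mean in every row, and Aldh1l2 has the widest spread, from -2.77 in KO 4J to 1.57 in WT 2D.

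Genes of folate transport, glycine, methionine and purine metabolism around the 9 enzymes were read in the same fit. Mthfd2l, a mitochondrial relative of Mthfd2, had 6.20 CPM in KO clones and 5.93 CPM in WT clones (edgeR adjusted p = 0.819). None of 6 tested folate transport and retention genes was called by edgeR, DESeq2 or limma-voom, or passed an unadjusted p of 0.05, and the most abundant, the reduced folate carrier Slc19a1, had 76.8 CPM in KO clones and 82.0 CPM in WT clones.

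In the methionine cycle, which takes methyl groups from folate, edgeR called 1 of 7 tested genes lower and none higher. Of all tested genes 2.29% were called lower. At an unadjusted p under 0.05, 3 were higher and 2 lower, DESeq2 called 1 higher (Ahcyl1) and 2 lower (Ahcy and Ahcyl2), and limma-voom called Ahcy lower. Ahcy, which splits S-adenosylhomocysteine, had 35.0, 34.5, 31.3, 33.3 and 32.2 CPM across the KO clones. Its WT values had a lowest of 39.5, a median of 42.2 and a highest of 49.7 CPM. No clone overlapped between genotypes, and the log2 fold change was -0.38 ± 0.07 (SE, edgeR adjusted p = 0.0121). None of 8 tested genes of glycine cleavage and serine use was called by edgeR (2 higher at an unadjusted p under 0.05, 2 with DESeq2, 0 with limma-voom). Their most abundant, the mitochondrial serine carrier Sfxn1, had 360 CPM in KO clones and 334 CPM in WT clones (edgeR adjusted p = 0.0973). None of 13 purine synthesis genes was called by edgeR (1 lower at an unadjusted p under 0.05 and with DESeq2, 0 with limma-voom), and Paics, the most abundant, had 619 CPM in KO clones and 628 CPM in WT clones. None of 6 lower glycolysis genes was called (3 lower at an unadjusted p under 0.05, 1 with DESeq2, 0 with limma-voom), with a median log2 fold change of -0.16. Pkm, with the most counted reads, had 924 CPM in KO clones and 948 CPM in WT clones, while Gapdh had only 4.92 and 5.44 CPM. Multiply mapped reads were not counted and near copies of these genes were not searched for, so their levels and order are uncertain. Neither gene of mitochondrial initiator formylation was called or passed an unadjusted p of 0.05, and Mtfmt had 22.8 CPM in KO clones and 22.0 CPM in WT clones.

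**Figure D5:**
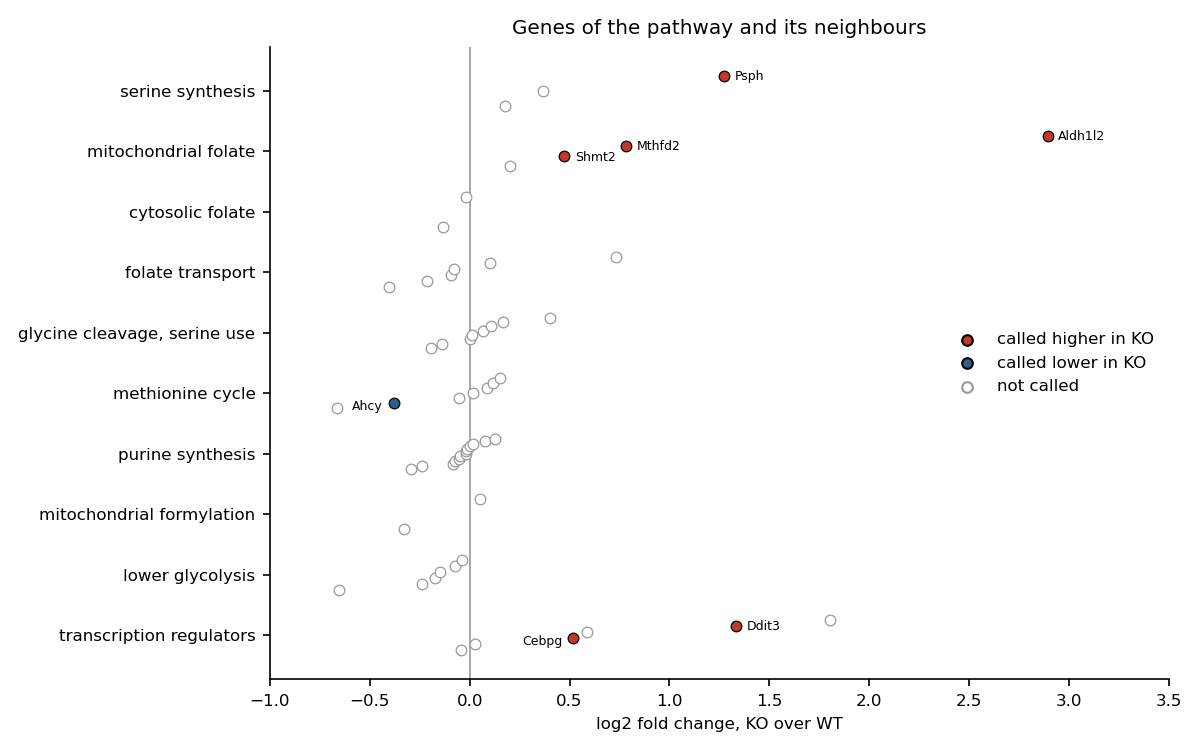
Log2 fold change, KO over WT, of each tested gene in 10 groups around the pathway; filled red points were called higher and filled blue points lower in KO clones. The called higher genes are Psph, Shmt2, Mthfd2, Aldh1l2, Cebpg and Ddit3, and the called lower gene is Ahcy.

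Of 6 transcription factors tied to these enzymes in mammalian cells, 2 were called higher in KO clones, beside 2.76% of all tested genes. Ddit3, a stress-induced C/EBP family factor, had 26.1, 29.1, 23.5, 19.998 and 23.3 CPM across the KO clones, against 8.09 to 13.1 CPM in WT clones. Its log2 fold change was 1.34 ± 0.14 (SE, edgeR adjusted p = 0.00117). Cebpg, a partner of ATF4, had 148, 154, 136, 135 and 133 CPM across the KO clones, against 91.0 to 105 CPM in WT clones. Its log2 fold change was 0.52 ± 0.06 (SE, edgeR adjusted p = 0.00117). Neither overlapped between genotypes, where 5.99% of all tested genes did not overlap. The Atf4 transcript, whose product is controlled mainly in translation, averaged 614 ± 54.2 CPM in KO clones and 409 ± 108 CPM in WT clones (SD, log2 fold change 0.59 ± 0.16, edgeR adjusted p = 0.0621). Atf5 averaged 109 ± 27.5 CPM in KO clones and 31.3 ± 33.1 CPM in WT clones (log2 fold change 1.80 ± 0.56, edgeR adjusted p = 0.0939). WT 2D held 96.7 CPM of Atf5, against 10.7 to 33.6 CPM in the other WT clones. Without WT 2D edgeR called both, with log2 fold changes of 0.72 for Atf4 (adjusted p = 0.00733) and 2.58 for Atf5 (adjusted p = 0.00279). DESeq2 and limma-voom called Atf4 and Atf5 higher. Nfe2l2 had 125 CPM in KO clones and 122 CPM in WT clones, and Myc 442 and 455 CPM. After the genotype means were subtracted, Atf4 had a Pearson r over 11 clones of 0.95 with Mthfd2, 0.40 with Psph, 0.19 with Aldh1l2 and 0.88 with the cytosolic Mthfd1. Without WT 2D these were 0.89, 0.18, -0.22 and 0.78. All 5 other stress response genes set beside them (Asns, Trib3, Chac1, Sesn2 and Cth) were called higher without overlap, with log2 fold changes of 1.04 to 3.83. Over all tested genes 2.76% were called higher and 5.99% did not overlap. The calls of Trib3 and Sesn2 held without any single clone. That of Asns was lost without KO 3H, 3I, 4J or 4L or WT 1B or 2F (adjusted p up to 0.0703), that of Cth without those or WT 1A (up to 0.0746), and that of Chac1 without any single clone other than WT 2D or 2E (up to 0.0849). Without WT 2D the log2 fold change of Trib3 was 3.72, against 2.97 with it, and that of Cth 4.79, against 3.83. These 5 were picked with earlier results of these data known.

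For each enzyme, the tested gene with the most similar pattern over the 11 clones was found by Pearson's r of log2 CPM. Aldh18a1, a proline synthesis enzyme, was the nearest to both Mthfd2 (r = 0.995, and 0.996 without WT 2D) and Shmt2 (r = 0.985, and 0.986 without WT 2D). It averaged 324 ± 21.4 CPM in KO clones and 234 ± 36.4 CPM in WT clones (SD) and was called higher (log2 fold change 0.47 ± 0.10, edgeR adjusted p = 0.0258), a call lost without any of 6 single clones (KO 3H, 3I, 4J or 4L, WT 1B or 2F; adjusted p up to 0.0716). With genotype means subtracted, Aldh18a1 was again nearest to Mthfd2 (r = 0.986). Psph was nearest to Slamf9 (r = 0.984), Phgdh to Jdp2 (r = 0.968), Psat1 to Pggt1b (r = 0.964), Mthfd1l to Gcn1l1 (r = 0.971) and Aldh1l2 to Tsc22d3 (r = 0.903). The cytosolic Shmt1 was nearest to Slc29a2 (r = 0.961, and 0.908 without WT 2D) and Mthfd1 to Psmb7 (r = 0.974, and 0.949 without WT 2D). Without WT 2D the r of Psph, Phgdh, Psat1, Mthfd1l and Aldh1l2 with these genes were 0.903 to 0.991. With genotype means subtracted, the nearest were Tm2d3 for Psph, Eif4a1 for Phgdh, Pgam5 for Psat1, Dync1li1 for Shmt2, Jpt2 for Mthfd1l, Lmln for Aldh1l2, Slc29a2 for Shmt1 and Cdc20 for Mthfd1, with r of 0.890 to 0.985. Without WT 2D these r were 0.876 to 0.963.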

How the data were processed

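The authors deposited 1 file of raw gene counts for each clone. Per the submitters' processing notes the tools were STAR, HTSeq and edgeR and the genome mm9, with no version or annotation release named. Per the labels' protocols the polyA libraries kept strand, but the deposited counts are marked as made without it. Rows that name no gene were kept out. They held, as reads outside genes, 6.59 ± 0.411% in KO clones and 6.07 ± 0.551% in WT clones, and, as reads hitting several genes, 2.79 ± 0.0735% and 2.85 ± 0.0581% (SD, n = 5 and 6). Multiply mapped reads, which these percentages leave out of their total, were a larger row. That row came to 86.3 ± 1.24 per 100 gene counts in KO clones and 83.6 ± 0.94 in WT clones (SD). It counts alignments that were not unique and may hold a read more than once, so it gives no share of reads. Of 37583 IDs, 32860 (87.4%) got symbols from GENCODE M21 (GRCm38), used only for names, exon lengths, overlaps and near copies. All pairs of libraries of a genotype differed by more than sampling noise (chi-square per gene 15.2 or more).

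Genotypes were tested with the robust quasi-likelihood method of edgeR (TMM, filterByExpr, Benjamini-Hochberg over all tested genes), with standard errors worked back from the F statistic. TMM-scaled library sizes underlie all CPM, and 2 is the prior count of log2 values. Ratios were tested by exact permutation, two-sided. The tests were tried on simulated counts. Versions were DESeq2 1.42.0, edgeR 4.0.16, limma 3.58.1, R 4.3.3, matplotlib 3.10.9, numpy 2.4.6, pandas 2.3.3 and Python 3.11.15. Floors of 3 counts cover counting error only. Promoters were searched for TGATGNAA, CACGTG and TGACNNNGC on both strands.

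The members and lists were chosen with earlier results of these data known. Genes named were Taz, the 9 enzymes, every called gene of a pathway list or its most abundant gene where none was called, the regulators, 5 stress response genes, genes a ratio uses, and each enzyme's most alike gene. Some genes that this rule takes are not reported here, nor are the counts of their list, the other folate enzymes. Cct6a, D10Wsu102e, Gapdh, Eno1, Elane and the untested ratios were added after values were seen. Alternatives were other normalisations, filters and tools, the title number as a block or as summed counts, leaving out each clone, title number or the 10 most abundant genes, and a late neutrophil covariate.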

Additional observations from a re-analysis of the deposited data

Results flagged for a closer look

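In 24 groups of values (the 9 enzymes and the 3 tested ratios, each in KO and in WT clones), 2 held a clone far from the rest of its genotype, where chance flags about 1 in 20 groups. Phgdh stood at 140.3 CPM in WT 2D, against 80.2 to 96.5 CPM in the other WT clones. Its gap to the nearest was 0.729 of the group's range, above the critical 0.625 for 6 samples. Shmt2 stood at 692 CPM in KO 4K, against 807 to 851 CPM in the other KO clones, a gap of 0.724 of the range, above the critical 0.710 for 5 samples. The cause of either was not tested.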

How the results depend on the processing

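Psph was called in all 26 alternatives (edgeR, DESeq2 or limma-voom adjusted p 8.87e-16 to 0.0454). Shmt2 was called in 13, Mthfd2 in 11 and Aldh1l2 in 10, always with a positive fold change, and the cause of the lost calls was not tested. The 4 enzymes called higher stood beside 328 of 11900 genes. They became 2 with no filter (175 of 21266 genes higher), 7 with the title number as a random block (1043 of 11900) and 1 with counts summed per title number (120 of 13697). Without single clones they became 1 to 6 (137 of 12030 to 419 of 11826 genes higher). Without title number 3, 4 or 1 they became 1, 1 and 1 (56 of 12211, 24 of 12486 and 27 of 12102). The number of genes tested ran from 9407 to 21266 over the alternatives. Over all genes, 601 calls became 329 with no filter, 1278 with DESeq2, 1983 with the block, 197 with summed counts, 943 with the late neutrophil covariate, 240 to 739 without single clones, and 92, 32, 45 and 296 without title number 3, 4, 1 or 2, which leaves fewer clones. No paired analysis was possible because KO and WT clones share no title number. The block within genotypes had an estimated correlation of -0.215. A negative value narrows the standard error of a genotype difference, because each title number lies within 1 genotype, so calls with the block come more easily. Without the block, limma-voom called 613 genes and 3 enzymes. Shmt1 (-0.02) ran from -0.0391 to 0.0406 without single clones (above 0 without KO 4L or WT 2D), was 0.00689 when title number 4 was left out, 0.0168 for title number 2 and 0.0127 under the covariate, and was never called. The ratio differences kept p under 0.05 in all 17 alternatives for Shmt2 over Shmt1 (0.44 to 0.57) and Mthfd2 over Mthfd1 (0.88 to 1.07). For Mthfd1l over Mthfd1 they did in 16, and without title number 2 the difference was 0.28 (exact permutation p = 0.0714). Ahcy lost its call with summed counts and without title number 3, 4 or 1.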
